A study of Ovis aries with 12 samples.

Results

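SR splicing factors are RNA-binding proteins named for a tail rich in serine and arginine. They bind enhancer sequences in exons, recruit the spliceosome to nearby splice sites and so help to decide which exons enter the mRNA. Their own transcripts are commonly spliced into forms that are degraded by nonsense-mediated decay, a feedback that holds their levels in check, and kinases of the CLK and SRPK families control their location and activity. The 10 genes followed here were SRSF1, SRSF2, SRSF3, SRSF4, SRSF5, SRSF6, SRSF7, SRSF10, SRSF11 and TRA2B. All probe sets annotated to one of these symbols alone were taken, which gave 14 probe sets for 9 genes among 24016 probe sets and 9155 named genes. SRSF2 had no probe set under its own symbol and is not analysed here. SRSF1 and SRSF11 had 3 probe sets each and SRSF4 had 2, and the other 6 genes had 1 each.

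The data came from 12 corpora lutea of sheep (Ovis aries), 1 gland per ewe and 1 Affymetrix bovine array per gland. The corpus luteum forms from the ruptured follicle and makes the progesterone on which a pregnancy depends. It regresses late in the cycle of a ewe that is not pregnant, and the study's title places its interest in genes of pregnancy that oppose this regression. There were 4 groups of 3 ewes. They were pregnant and non-pregnant ewes of day 12, and pregnant and non-pregnant ewes of day 14. Fertile rams had sired the pregnancies, while the non-pregnant ewes stayed unbred and were tested for heat with a vasectomized ram. Breed, age and any agent given to the ewes are not stated in the labels used here. Groups follow the source labels, although the array titles all read day 12 pregnant and so differ from them for 9 arrays. The genes were chosen with the day 12 difference between pregnant and non-pregnant ewes in view, so that difference is a description for them: no p is given for a probe set, and counts of calls are printed beside those of all probe sets with nothing read from them. The day 14 pregnancy difference compares other arrays and was tested. Its spread and batch term were estimated over all 12 arrays, and the genes were chosen with earlier results of these data known. The day 14 test is thus not fully independent of the choice.

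Values are log2 signals after RMA. Sheep RNA was read with bovine probes, so the level of one probe set was not set against that of another. STAR, HSD3B1 and CYP11A1, the cholesterol carrier and the enzymes that define a steroid-making luteal cell, lay between 11.16 and 13.18 on every array, above the 99th percentile of all probe sets by their means. The 3 day 14 non-pregnant arrays stood apart on the first principal component, at 18.1 to 40.4 against -13.0 to -7.00 for the other 9, so the spread pooled over groups can be too small for comparisons that hold them. Array descriptions were of 2 kinds (Gene Array and Genome Array). They were treated as array batches, which is an assumption. Here 4 arrays form batch A, of which 2 are day 14 non-pregnant and 1 each belongs to the pregnant groups, and 8 form batch B. In whole glands, fewer cells of a type and less RNA per cell cannot be told apart.

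On day 12 the SR gene whose values lay farthest apart was SRSF1, the founding member of the family, which promotes the use of proximal splice sites and also shuttles to the cytoplasm. By probe set Bt.864.2.S1_a_at, SRSF1 stood at 7.93, 8.22 and 8.12 in day 12 pregnant ewes, against 8.92, 8.85 and 8.78 in day 12 non-pregnant ewes. Every pregnant value lay below every non-pregnant value. The difference in limma, which takes the array batch into account, was -0.74 ± 0.11 (log2, standard error), a 0.60-fold level. Within batch B, where both groups had arrays, it was -0.77. These values are a description, since the genes were chosen on this comparison.

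The other SRSF1 probe sets lay the same way with smaller distances. SRSF1 probe set Bt.864.2.S1_at gave 8.47, 8.39 and 8.12 in day 12 pregnant ewes, against 8.88, 8.82 and 8.72 in non-pregnant ewes, a difference of -0.44 ± 0.16. Probe set Bt.864.1.A1_at of SRSF1 gave 6.07, 6.05 and 6.06 against 6.21, 6.22 and 6.22, a difference of -0.14 ± 0.086. In each of the 3 probe sets the pregnant and non-pregnant values did not overlap. The names of Bt.864.2.S1_a_at and Bt.864.2.S1_at share the number 864.2, and the third probe set has 864.1. All 3 read the same gene on the same arrays and so are not independent. Over the 12 arrays Pearson's r between SRSF1 probe sets was 0.72 to 0.80, as a description of arrays that share groups and batches.

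**Figure D1:**
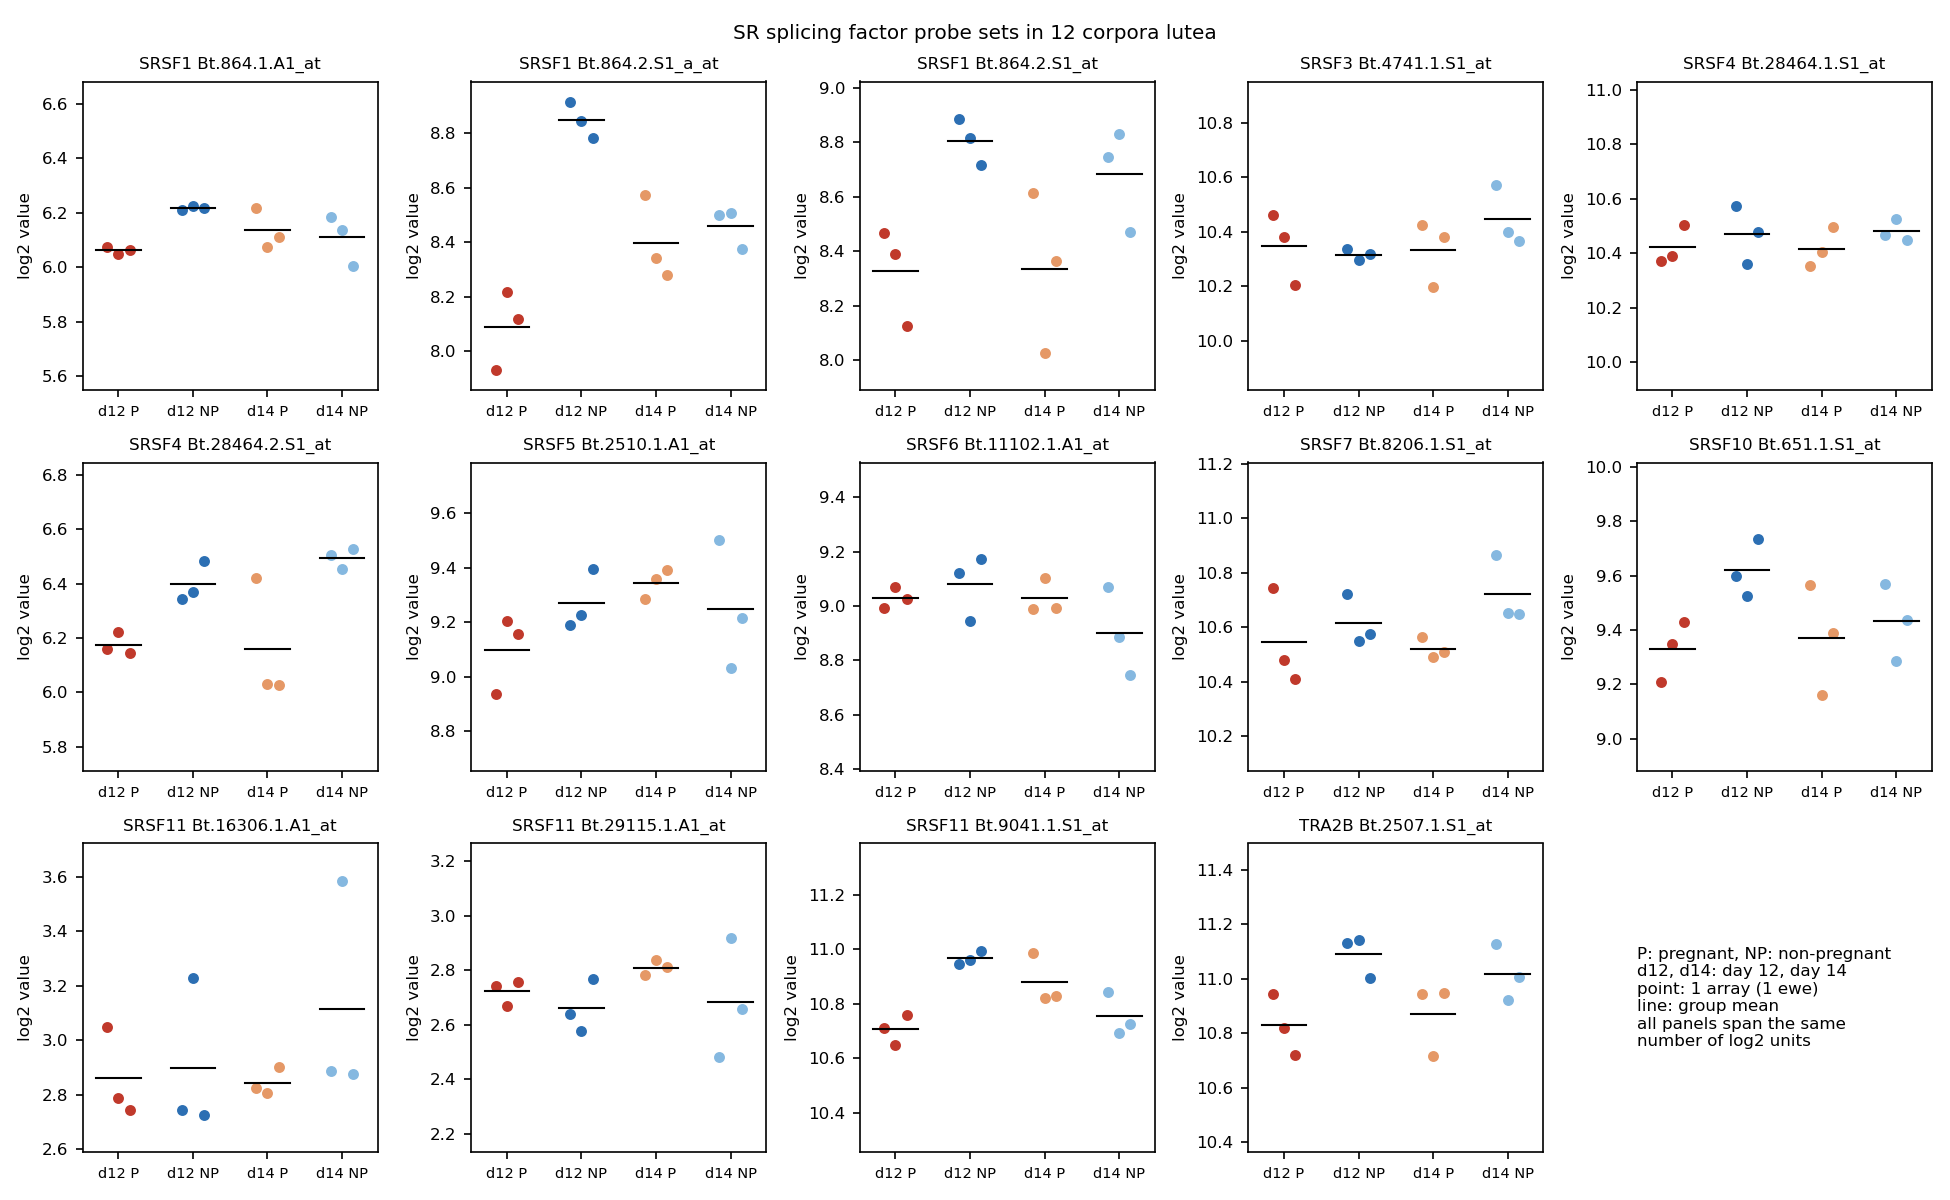
Log2 values of the 14 SR splicing factor probe sets, 1 panel each. Points are single arrays (n = 3 per group), lines are group means, and all panels span the same number of log2 units. In SRSF1 Bt.864.2.S1_a_at the day 12 pregnant arrays lie at 7.93 to 8.22 and the day 12 non-pregnant arrays at 8.78 to 8.92.

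Of the remaining classical SR proteins, SRSF4 was read by 2 probe sets that did not move together (Pearson's r 0.099 over 12 arrays). Probe set Bt.28464.2.S1_at of SRSF4 stood at 6.16, 6.22 and 6.15 in day 12 pregnant ewes, against 6.34, 6.37 and 6.48 in non-pregnant ewes, with no overlap and a difference of -0.19 ± 0.11. SRSF4 probe set Bt.28464.1.S1_at lay at 10.37 to 10.50 in pregnant and 10.36 to 10.57 in non-pregnant ewes, a difference of -0.077 ± 0.089. SRSF5 (-0.15 ± 0.13) and SRSF6 (-0.016 ± 0.10), which like SRSF4 bind purine-rich exonic enhancers, had overlapping groups. So did SRSF3, the smallest SR protein and an adaptor for mRNA export (0.070 ± 0.10), and its close relative SRSF7 (-0.024 ± 0.10).

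Among the family's other members, SRSF10, which represses splicing when it loses its phosphates, stood at 9.21, 9.35 and 9.43 in day 12 pregnant ewes, against 9.60, 9.53 and 9.73 in non-pregnant ewes. The groups did not overlap, and the difference was -0.29 ± 0.13. TRA2B, which binds GAA-rich exonic enhancers and works with SR proteins, stood at 10.95, 10.82 and 10.72 in pregnant ewes, against 11.13, 11.14 and 11.001 in non-pregnant ewes. Here too the groups were apart, by as little as 10.945 against 11.001, with a difference of -0.24 ± 0.11. SRSF11, an SR-related protein of the spliceosome, stood at 10.71, 10.65 and 10.76 in pregnant ewes, against 10.95, 10.96 and 10.99 in non-pregnant ewes by its bright probe set Bt.9041.1.S1_at. That is a difference of -0.25 ± 0.090 with no overlap. Its other probe sets, Bt.16306.1.A1_at and Bt.29115.1.A1_at, lay among the dimmest 25% of all probe sets (means of 2.93 and 2.72) and gave -0.067 ± 0.20 and 0.022 ± 0.11. Neither followed the bright SRSF11 probe set over the arrays (Pearson's r -0.28 and -0.19, n = 12).

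Over all 14 probe sets, 12 had a day 12 difference below 0, beside 46.9% of all probe sets, and the median difference was -0.14 beside 0.011 over all. In limma with Benjamini-Hochberg adjustment 0 of the 14 passed 0.05, beside 0% of all probe sets. At an unadjusted p under 0.05 there were 5, all lower in pregnant ewes, beside 4.23% of all probe sets, and 7 had lower values without overlap, beside 7.87%. None (0) was higher without overlap, beside 8.56%. Since the genes were chosen on this comparison, nothing is read from these counts. The 7 probe sets without overlap belonged to SRSF1, SRSF4, SRSF10, SRSF11 and TRA2B. For SRSF4 and SRSF11 the other probe sets had overlapping groups.

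RNA quality and cell type markers were read on the same arrays. The actin and GAPDH control probe sets have 3′ and 5′ versions whose distance is a sign of RNA integrity. This distance (3′ minus 5′, log2) spanned 1.57 to 1.60 in day 12 pregnant ewes and 1.42 to 1.47 in day 12 non-pregnant ewes, without overlap. Of 12 marker lists, 1 was apart between these groups. The mean of the red blood cell markers (5 of 6 measured) was 4.45 to 4.59 in pregnant and 4.31 to 4.44 in non-pregnant ewes. The part of both in the day 12 SR values was not tested.

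**Figure D2:**
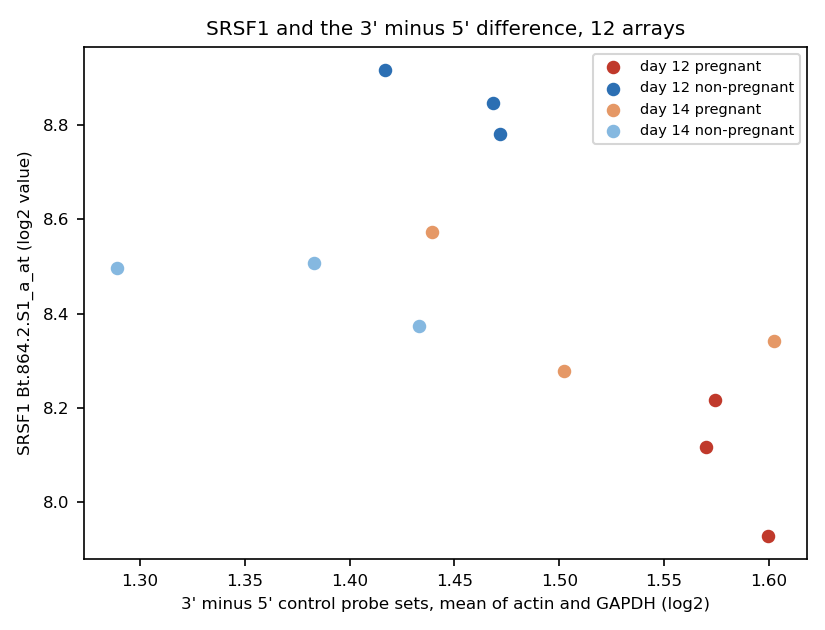
SRSF1 probe set Bt.864.2.S1_a_at (vertical axis, log2 value) against the 3′ minus 5′ difference of control probe sets (horizontal axis, log2) on each of the 12 arrays, coloured by group. Day 12 pregnant arrays have differences of 1.57 to 1.60 and SRSF1 values of 7.93 to 8.22. Day 12 non-pregnant arrays have differences of 1.42 to 1.47 and SRSF1 values of 8.78 to 8.92. For day 14 pregnant arrays these are 1.44 to 1.60 and 8.28 to 8.57, and for day 14 non-pregnant arrays 1.29 to 1.43 and 8.37 to 8.51. A link between the 2 axes was not tested.

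On day 14 none of the 14 SR probe sets passed between pregnant and non-pregnant ewes in limma (0 of 14, beside 1.45% of all probe sets). At an unadjusted p under 0.05 there were 3, all lower in pregnant ewes, beside 6.8% of all probe sets. The median difference was -0.073, beside 0.029 over all probe sets, and 9 of the 14 were below 0, beside 43.4%.

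SRSF1 by Bt.864.2.S1_a_at stood at 8.57, 8.34 and 8.28 in day 14 pregnant ewes, against 8.50, 8.51 and 8.37 in day 14 non-pregnant ewes. The groups overlapped, and the difference was -0.083 ± 0.11 (95% interval -0.33 to 0.16, adjusted p = 0.781 in limma). SRSF1 by Bt.864.2.S1_at stood at 8.61, 8.03 and 8.36 in pregnant ewes, against 8.75, 8.83 and 8.47 in non-pregnant ewes, with overlap through pregnant replicate 1. Its difference was -0.39 ± 0.16 (95% interval -0.73 to -0.045, adjusted p = 0.262 in limma), and it was -0.50 without day 14 pregnant replicate 1 and -0.23 without day 14 pregnant replicate 2. Probe set Bt.864.1.A1_at of SRSF1 was at 0.010 ± 0.086 (adjusted p = 0.974 in limma). The sign of this last value, which is small beside its standard error, turned in 4 other settings.

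SRSF4 by Bt.28464.2.S1_at stood at 6.42, 6.03 and 6.03 in day 14 pregnant ewes, against 6.50, 6.45 and 6.53 in non-pregnant ewes. All pregnant values lay lower, replicate 1 by a narrow margin, and the difference was -0.36 ± 0.11 (95% interval -0.61 to -0.12, adjusted p = 0.142 in limma). The adjusted p of this SRSF4 probe set lay between 0.0573 and 0.488 under 20 other settings. SRSF4 by Bt.28464.1.S1_at was at -0.034 ± 0.089 (adjusted p = 0.9 in limma), so the 2 SRSF4 probe sets differed in size here as on day 12.

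SRSF7, a shuttling SR protein with a zinc knuckle, stood at 10.56, 10.49 and 10.51 in day 14 pregnant ewes, against 10.86, 10.65 and 10.65 in non-pregnant ewes. No values overlapped, and the difference was -0.25 ± 0.10 (95% interval -0.47 to -0.026, adjusted p = 0.268 in limma, 0.215 to 0.516 under other settings). These probe sets of SRSF4 and SRSF7 were the 2 of 14 with lower values in pregnant ewes and no overlap, beside 7.15% of all probe sets, and 0 were higher without overlap, beside 11.1%.

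The remaining SR genes had overlapping groups on day 14. TRA2B stood at 10.94, 10.72 and 10.95 in pregnant ewes, against 11.13, 10.92 and 11.01 in non-pregnant ewes (-0.17 ± 0.11, adjusted p = 0.478 in limma). TRA2B spanned -0.30 (without day 14 pregnant replicate 3) to -0.091 (without day 14 pregnant replicate 2) with 1 array left out. SRSF10 was at -0.063 ± 0.13. SRSF3 was at -0.15 ± 0.10 and spanned -0.27 to -0.069 without the same 2 arrays. SRSF5 (0.070 ± 0.13), SRSF6 (0.092 ± 0.10) and the bright probe set of SRSF11 (0.11 ± 0.090) lay above 0. The 95% intervals of these members reached from -0.40 for TRA2B to 0.36 for SRSF5. For the dim SRSF11 probe sets the differences were -0.24 ± 0.20 and 0.17 ± 0.11, and the first held the highest of its 12 values, 3.59, in day 14 non-pregnant replicate 2.

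**Figure D3:**
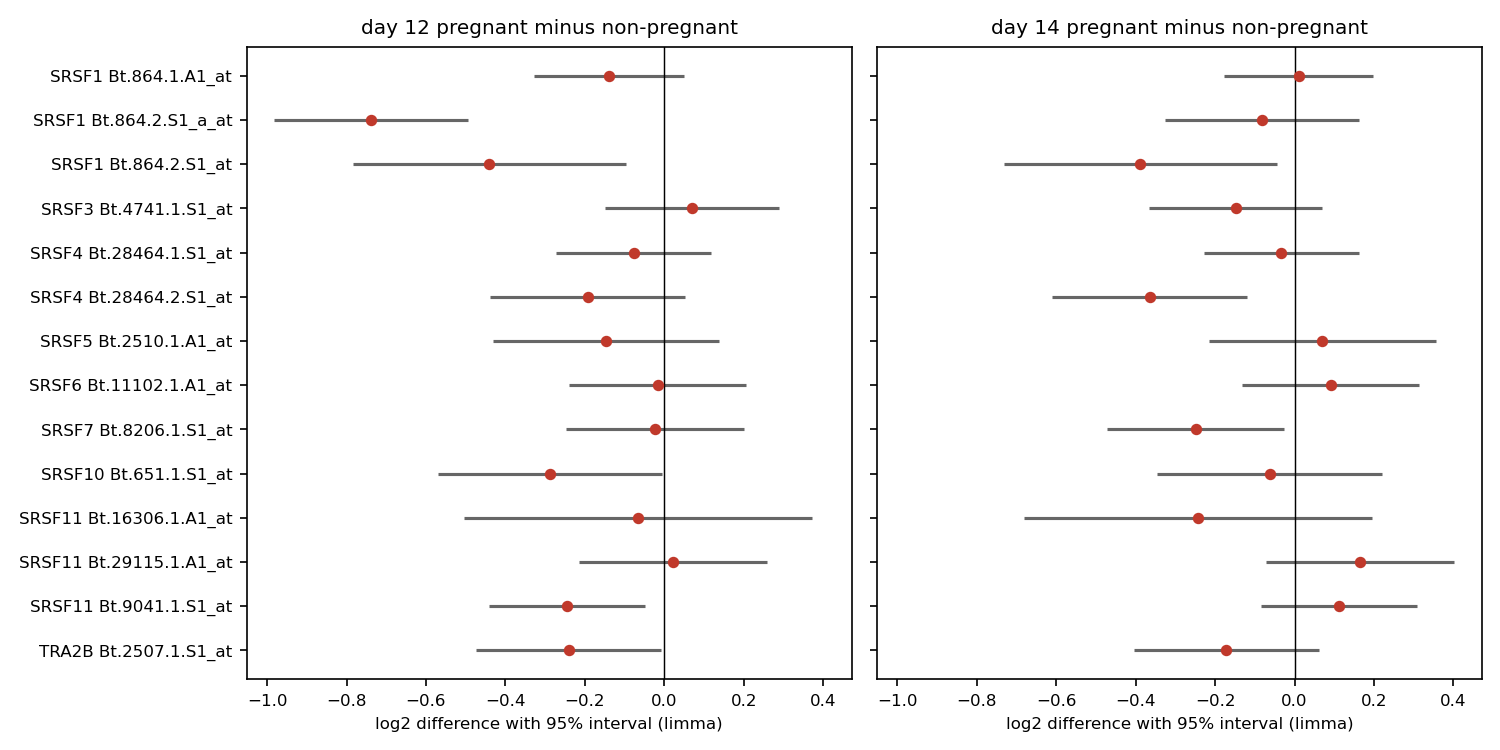
Log2 differences of pregnant minus non-pregnant ewes for the 14 SR probe sets on day 12 (left) and day 14 (right), as points with 95% intervals from limma over 12 arrays. On day 12 SRSF1 Bt.864.2.S1_a_at lies at -0.74 and on day 14 at -0.083. The genes were chosen on the day 12 comparison, so its intervals are a description and not a test.

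On day 14 the distance between 3′ and 5′ controls spanned 1.44 to 1.60 in pregnant ewes and 1.29 to 1.43 in non-pregnant ewes. The mean of the 9 luteal cell markers was 10.26 to 10.41 in pregnant and 9.68 to 10.07 in non-pregnant ewes. The granulosa and follicle list (5 of 5 measured, 5.57 to 5.74 against 5.82 to 6.53) and the cell division list (9 of 12, 5.90 to 6.19 against 5.60 to 5.78) were also apart between pregnant and non-pregnant ewes. Their part in the day 14 SR values was not tested.

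The levels in the 4 groups show where the day 12 distance of SRSF1 lay. In Bt.864.2.S1_a_at, SRSF1 averaged 8.09 ± 0.15 in day 12 pregnant ewes, 8.40 ± 0.16 in day 14 pregnant ewes, 8.46 ± 0.074 in day 14 non-pregnant ewes and 8.85 ± 0.067 in day 12 non-pregnant ewes (SD, n = 3 each). The lowest and the highest group each stood clear of the rest, and the pair from day 14 overlapped in between. The group means of Bt.864.2.S1_at of SRSF1 came in the same order, at 8.33 ± 0.18, 8.33 ± 0.29, 8.68 ± 0.19 and 8.81 ± 0.084, with overlap between all neighbours. SRSF10 and TRA2B had that order of groups too, again with overlap between neighbours. TRA2B averaged 10.83, 10.87, 11.02 and 11.09. SRSF10 averaged 9.33, 9.37, 9.43 and 9.62. For SRSF11 by its bright probe set the order was day 12 pregnant (10.71), day 14 non-pregnant (10.75), day 14 pregnant (10.88) and day 12 non-pregnant (10.97), with overlap between neighbours. For SRSF7 and for both SRSF4 probe sets the day 14 non-pregnant group was the highest and the day 14 pregnant group the lowest.

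The comparisons between days share arrays with the day 12 pregnancy difference, so they too are a description for the SR genes, with no p for a probe set. In pregnant ewes, day 14 minus day 12 was 0.31 ± 0.11 for SRSF1 by Bt.864.2.S1_a_at, 0.25 ± 0.12 for SRSF5 and 0.17 ± 0.086 for the bright SRSF11 probe set. There 5 of 14 probe sets lay higher on day 14 without overlap, beside 4.58% of all probe sets, and 0 lower, beside 5.32%. In non-pregnant ewes the same difference was -0.35 ± 0.12 for SRSF1 by Bt.864.2.S1_a_at, -0.18 ± 0.099 for the bright SRSF11 probe set and 0.20 ± 0.11 for both SRSF3 and SRSF7. In that comparison 3 probe sets lay lower without overlap, beside 12.1%, and 1 higher, beside 7.67%. The pregnancy difference on day 14 minus that on day 12 was 0.65 ± 0.16 for SRSF1 by Bt.864.2.S1_a_at but 0.052 ± 0.23 by Bt.864.2.S1_at. It was 0.36 ± 0.13 for the bright SRSF11 probe set and between -0.23 and 0.22 for the other 11. In limma 0 of the 14 SR probe sets passed in these comparisons, beside 0% of all probe sets between days in pregnant ewes, 0.391% between days in non-pregnant ewes and 0.0874% for the difference of differences. At an unadjusted p under 0.05 there were 1, 1 and 2 in that order, beside 4.43%, 11.7% and 9.42%, and nothing is read from these counts.

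**Figure D4:**
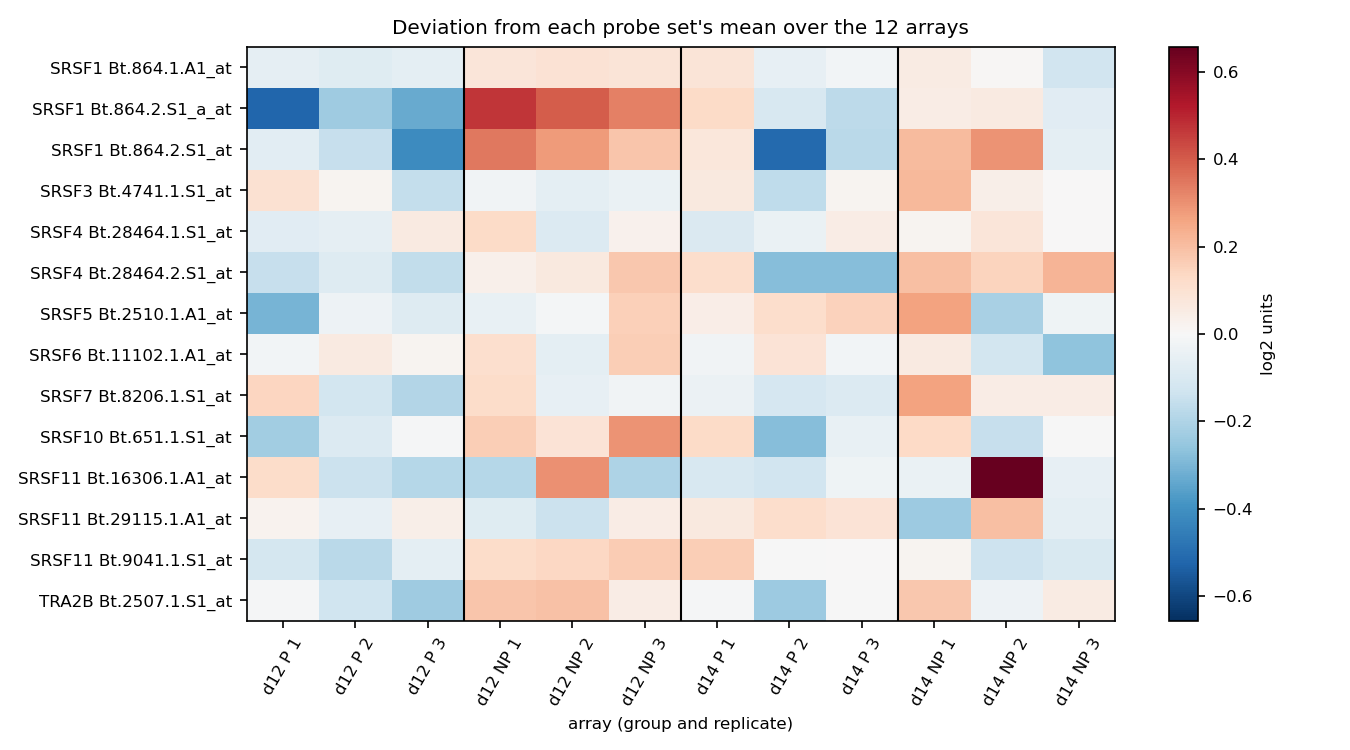
Deviation of each SR probe set (rows) from its own mean over the 12 arrays (columns, by group and replicate), in log2 units, red above and blue below the mean. The lowest SRSF1 values are in day 12 pregnant replicate 1 for Bt.864.2.S1_a_at (7.93) and in day 14 pregnant replicate 2 for Bt.864.2.S1_at (8.03). For SRSF1 Bt.864.1.A1_at the lowest is in day 14 non-pregnant replicate 3 (6.01). The largest red cell is the dim SRSF11 Bt.16306.1.A1_at in day 14 non-pregnant replicate 2 (3.59).

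Further genes of the splicing machinery were read from 5 lists, each gene by its brightest probe set. Of 133 genes listed 106 were measured, and 0 passed in limma in any of the 5 comparisons. At an unadjusted p under 0.05 on day 12, 12 were lower and 4 higher in pregnant ewes, beside 4.23% and 3.46% of all probe sets. The lists were chosen with earlier results of these data known, and genes are named by their day 12 p. The counts and named genes are therefore a description. The shares and medians over all probe sets, here and above, include dim probe sets and those without a symbol. They are not matched in brightness to the genes listed.

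Other SR and SR-related proteins, which carry similar serine and arginine tails, held 8 of those 12 and none of the 4. These 8 were among 20 measured members, beside 4.23% of all probe sets. On day 12, 17 of their 20 measured members were below 0, beside 46.9% of all probe sets, and their median difference was -0.24, beside 0.011 over all. TRA2A, the paralog of TRA2B, lay at 9.19 to 9.57 in day 12 pregnant ewes and 9.62 to 9.84 in day 12 non-pregnant ewes (-0.48 ± 0.11, adjusted p = 0.331 in limma). PNN, a protein of splicing speckles and cell junctions, lay at 4.77 to 5.21 and 5.46 to 5.52 (-0.48 ± 0.13, adjusted p = 0.439). SCAF11, an SR-related spliceosome protein, was at -0.37 ± 0.11 with values that met at 5.66 (adjusted p = 0.519). SRSF9, the classical SR protein closest to SRSF1, was on the other side at 0.13 ± 0.095, with all pregnant values above the non-pregnant ones (adjusted p = 0.795). On day 14 the median of this list was -0.054, beside 0.029 over all, and 12 of 20 were below 0, beside 43.4%. There TRA2A was at -0.12 ± 0.11 and PNN at -0.051 ± 0.13 in limma.

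The core spliceosome list had 33 of 44 members above 0 on day 12 and 11 below, beside 46.9% of all probe sets below 0. Its median was 0.13, beside 0.011 over all. The 3 members with the smallest p were SF3B1, PRPF6 and EFTUD2. SF3B1, which holds the branch point, was at -0.34 ± 0.093 (10.76 to 10.93 in pregnant and 11.14 to 11.17 in non-pregnant ewes, adjusted p = 0.439 in limma). The U5 and tri-snRNP proteins PRPF6 (0.29 ± 0.11, adjusted p = 0.588) and EFTUD2 (0.24 ± 0.10, adjusted p = 0.627) were higher in pregnant ewes without overlap. PRPF6 lay at 7.15 to 7.39 in pregnant and 6.93 to 7.004 in non-pregnant ewes, and EFTUD2 at 8.09 to 8.21 and 7.90 to 7.95. On day 14 the list's median was -0.040, beside 0.029 over all. There 18 of 44 were above 0 and 26 below, beside 43.4% of all probe sets below 0.

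The hnRNP proteins, which often oppose SR proteins at exons, had a day 12 median of -0.038 over 21 members. Of these 14 were below 0, beside 46.9% of all probe sets. HNRNPH1 was at -0.27 ± 0.094 (adjusted p = 0.575 in limma) and HNRNPH3 at -0.28 ± 0.11 (adjusted p = 0.592), both without overlap between groups. RALY was at 0.17 ± 0.11, also without overlap (8.15 to 8.25 in pregnant and 7.91 to 8.12 in non-pregnant ewes, adjusted p = 0.751). Kinases and transport factors of SR proteins had a median of 0.0055 over 12 members. NXT1, of the mRNA export receptor, was at 0.35 ± 0.14 (adjusted p = 0.598), CLK1, which phosphorylates SR proteins in the nucleus, at -0.29 ± 0.14 (adjusted p = 0.665) and TNPO3, which imports them, at 0.17 ± 0.11 (adjusted p = 0.763). Nonsense-mediated decay factors had a median of 0.052 over 9 members on day 12 and of -0.072 on day 14. On day 12 SMG1, the kinase of this pathway, was at -0.43 ± 0.17 (adjusted p = 0.604), CASC3 at 0.10 ± 0.078 (adjusted p = 0.798), both without overlap, and SMG6 at 0.18 ± 0.14 (adjusted p = 0.806). On day 12, 5 of 12 kinases and transport factors and 3 of 9 decay factors were below 0. On day 14 the medians were -0.081 for the hnRNP proteins and 0.017 for the kinases and transport factors. Below 0 on day 14 were 16 of 21 hnRNP proteins, 6 of 12 kinases and transport factors and 9 of 9 decay factors. The share of all probe sets below 0 was 43.4% on day 14.

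**Figure D5:**
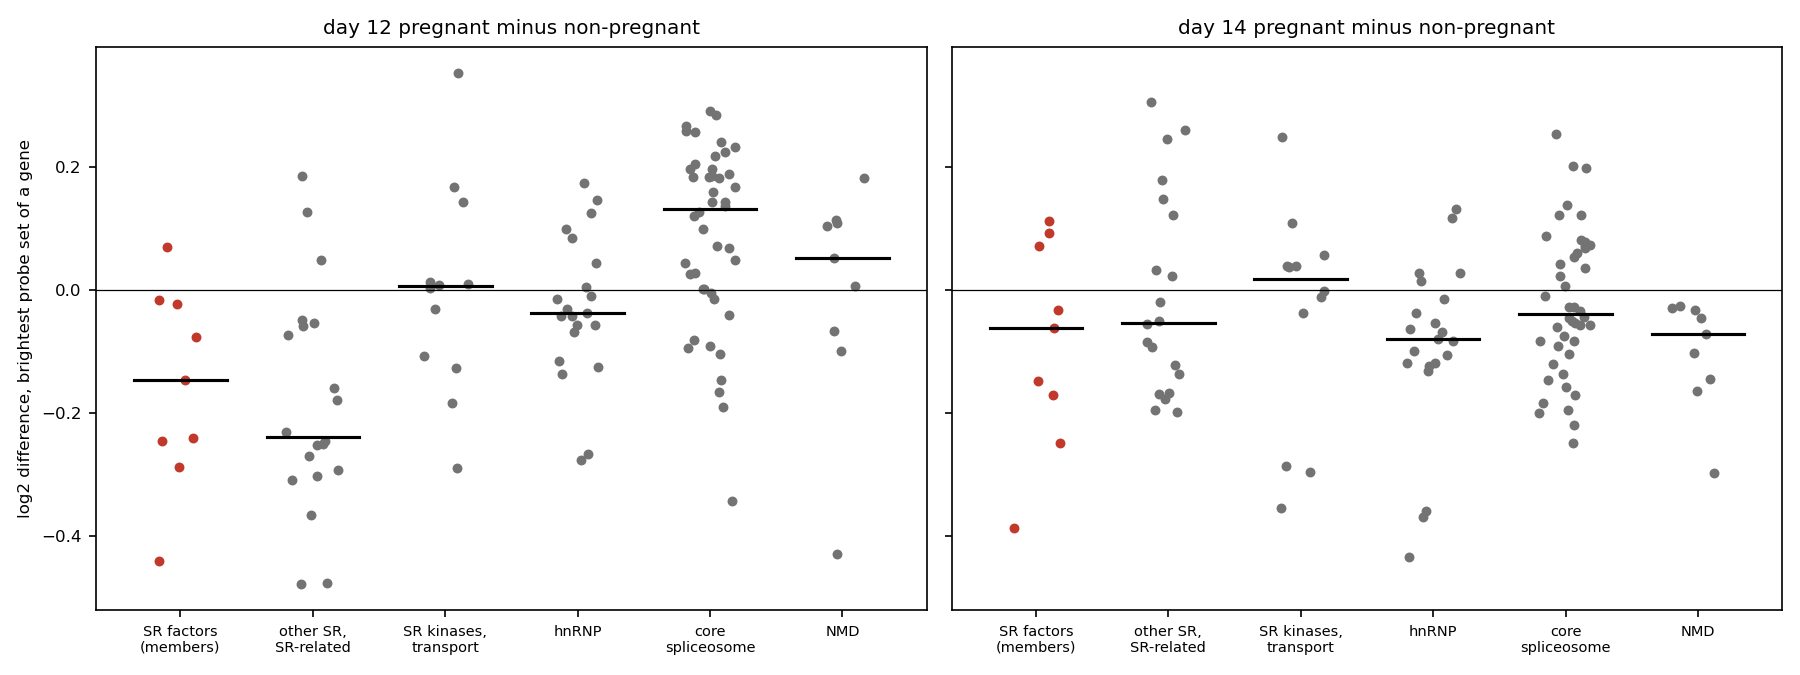
Log2 differences of pregnant minus non-pregnant ewes on day 12 (left) and day 14 (right) by gene list. Each point is a gene by its brightest probe set (SRSF1 by Bt.864.2.S1_at), and bars are list medians. On day 12 the bar is at -0.24 for other SR and SR-related proteins and at 0.13 for the core spliceosome.

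The mean of the 9 SR genes, each by its brightest probe set and centred on its own mean, lay between -0.12 and -0.065 in day 12 pregnant ewes and between 0.045 and 0.12 in day 12 non-pregnant ewes. It lay between -0.13 and 0.035 in day 14 pregnant ewes and between -0.039 and 0.15 in day 14 non-pregnant ewes. The named probe sets whose 12 values were most like this mean belonged to PAXBP1 (Pearson's r 0.93), STRAP (0.92), SEPTIN10 (0.92), GLMN (0.91) and EIF4G3 (0.91), out of 13085 candidates. These values are a description over 12 arrays that share groups and batches. Since the SR mean holds the day 12 difference the genes were chosen on, values below 0 on day 12 follow from the choice of PAXBP1, STRAP, SEPTIN10, GLMN and EIF4G3. In that order their differences between pregnant and non-pregnant ewes were -0.45, -0.58, -0.31, -0.30 and -0.27 on day 12 and -0.27, -0.39, -0.16, -0.054 and -0.032 on day 14, and the day 14 arrays entered the choice too.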

How the data were processed

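The deposited table holds log2 values of 24128 probe sets on 12 arrays, which per the submitters' processing notes the authors computed by RMA with Affymetrix Expression Console. Its version is not given in the sources used here. This method corrects background, normalizes arrays by quantiles and gives no detection calls, so dim probe sets have uncertain differences, and the number of arrays limits the precision. Values were used as deposited after 112 control probe sets were left out. GEO's platform annotation supplied the symbols, with a single gene for 13292 probe sets, while 86 had several genes and 10638 had none.

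With limma 3.58.1 (R 4.3.3), group means and an additive batch term were estimated over the 12 arrays (7 residual and 4.39 prior degrees of freedom), two-sided, with Benjamini-Hochberg adjustment over 24016 probe sets and a threshold of 0.05. Fitted differences therefore differ from differences of group means, and for small values the gap can be as large as the value. On day 12 SRSF1 by Bt.864.2.S1_a_at was at -0.74 with the batch term and -0.76 without it. SRSF7 was at -0.024 with it and -0.072 without, and SRSF3 at 0.070 and 0.032. Values with ± are standard errors from limma unless SD is named. The batch term passed for 0 member probe sets, with 0 at an unadjusted p under 0.05. Each ewe gave 1 array, so p-values measure the spread between ewes. No pair of arrays was identical.

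The members and lists were chosen with earlier results of these data known. Named genes are all members, the 3 with the smallest day 12 p of each splicing list (none passed), and the 5 most like the members' mean. SRSF9 was named after its value was seen. Other settings tried left out the batch term, took batch as random, filtered dim probe sets (mean under the 25th percentile, 3.59), centred arrays on medians, used trended robust moderation or array weights, kept only the 6 arrays compared, left out each array in turn or looked within batches. Added after seeing the data were batch B alone and leaving out the 3 day 14 non-pregnant arrays. The code was tested on simulated data.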

Additional observations from a re-analysis of the deposited data

How the results depend on the processing

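In limma 0 of the 14 SR probe sets passed in any of the 5 comparisons, under any alternative run. In the 12-array fit 1 to 5 had an unadjusted p under 0.05, beside the shares of all probe sets given above. Of the 106 other splicing genes 0 passed under any alternative. At an unadjusted p under 0.05 in limma, 12 were lower and 4 higher on day 12, beside 4.23% and 3.46% of all probe sets. On day 14 there were 7, of which 5 were lower, beside 6.8% of all probe sets lower. Between days there were 1 in pregnant and 7 in non-pregnant ewes, beside 4.43% and 11.7%. For the day 14 minus day 12 pregnancy difference there were 15, beside 9.42%. On day 12 the median of the SR probe sets stayed between -0.18 and -0.13, and SRSF1 by Bt.864.2.S1_a_at between -0.81 (without day 12 pregnant replicate 2) and -0.62 (without day 12 pregnant replicate 1). These day 12 ranges are a description, since the genes were chosen on this comparison and the runs reuse its arrays. On day 14 the median stayed between -0.15 (without day 14 pregnant replicate 1) and -0.039 (without day 14 non-pregnant replicate 1). The signs of day 14 values near 0 turned. SRSF1 by Bt.864.1.A1_at became -0.019 with median centring and -0.037 in batch B alone, and with 1 array left out it spanned -0.030 (without day 14 non-pregnant replicate 3) to 0.053, with -0.020 when day 14 pregnant replicate 1 was dropped. SRSF5 became -0.18 in batch B alone and spanned -0.027 (without day 14 pregnant replicate 3) to 0.27 with 1 array left out, with -0.018 when day 14 non-pregnant replicate 2 was dropped. SRSF10 spanned -0.15 to 0.070 (without day 14 non-pregnant replicate 1), with 0.035 when day 14 pregnant replicate 2 was dropped. SRSF4 by Bt.28464.1.S1_at spanned -0.062 to 0.011 (without day 14 non-pregnant replicate 1), and SRSF6 became -0.025 in batch B alone. The causes were not tested. Over all probe sets, the count past the threshold was 0 on day 12 and 0 to 5 under the alternatives. It was 348 on day 14, 88 (without day 14 pregnant replicate 3) to 510 with 1 array left out and 24 to 531 otherwise, with 24 from the 6 arrays compared. Between days in non-pregnant ewes it was 94, against 28 to 254 and 1 to 462, and for the day 14 minus day 12 pregnancy difference it was 21, against 1 to 76 and 15 to 59. No paired analysis was possible because the labels give no replicate numbers that groups share.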
